A study of Mus musculus with 2 samples.

Results

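Interferon-stimulated genes were followed across the cell classes of the post-ischemic mouse kidney. The members were 39 genes listed by symbol, chosen as established interferon targets and antiviral effectors. Of these, 37 matched a gene among the 32285 genes of the files, whereas Mx1 and Mx2, which encode dynamin-like antiviral GTPases, matched none and were not analysed here. The rule itself uses no measured value. Male C57BL/6 mice 9 weeks of age underwent bilateral renal ischemia-reperfusion injury (IRI), and kidneys were taken 24 h later. One mouse received saline (control) and 1 received JPI-289 at 100 mg/kg, each as an intraperitoneal injection just before reperfusion. JPI-289 is an inhibitor of poly (ADP-ribose) polymerase (PARP), an enzyme of DNA damage signalling. Single-cell RNA sequencing with a 5′ kit gave 1 library per mouse, so no test between the treatments was possible, and mouse, library and treatment cannot be told apart. No uninjured kidney was analysed here.

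Interferons are secreted proteins that warn neighbouring cells of infection or of nucleic acids in the wrong place. Type I interferons signal through Ifnar1 and Ifnar2 and activate a complex with Stat2 and Irf9, which binds the interferon-stimulated response element (ISRE) in front of its target genes. Interferon gamma signals through Ifngr1 and Ifngr2 and acts mainly at the gamma-activated sequence (GAS). The induced proteins bind or degrade viral RNA, hold virus particles at the membrane, sense nucleic acids or feed back on the signal. In the kidney, nucleic acids released from injured cells are a known trigger of the same sensors.

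Several members lie beside their relatives in the genome. The 4 Ifit genes are on chromosome 19. On chromosome 5, Oas1a, Oas2 and Oas3 lie together and Oasl1 and Oasl2 form a separate pair. Gbp2, Gbp3 and Gbp7 lie together on chromosome 3, with Ifi44 elsewhere on it. Irf1, Ifi35, Dhx58, Igtp, Irgm1, Xaf1 and Trim25 are all on chromosome 11. RefSeq promoter windows on GRCm38.p6, from 250 bases before to 50 bases after the start of transcription, were available for 31 of the 37 members. The core of the ISRE, searched on either strand as GAAANNGAAA, occurred in the windows of 18 of these 31 genes (58.1%), against 3.99% of 27025 genes with a window. The core of the GAS, searched as TTCNNNGAA, which reads the same on both strands, occurred in 11 of 31 (35.5%), against 9.55% of all genes, and the 2 cores can overlap. Such a match describes the letters and does not show that a factor bound there in these cells. The 250 bases in front of 6 members are given because their values carry most of what follows. Isg15, Ifit1, Ifit3, Rsad2 and Bst2 hold 1 to 3 ISRE cores, while Oasl1, with the largest ratio in LOH/distal tubule-like cells, holds none in this window. Sequences are written 5′ to 3′ on the strand of the gene, with ISRE cores in capitals and, in Bst2, also an adjoining GAS core.
Isg15, chr4:156200819-156201068, minus strand: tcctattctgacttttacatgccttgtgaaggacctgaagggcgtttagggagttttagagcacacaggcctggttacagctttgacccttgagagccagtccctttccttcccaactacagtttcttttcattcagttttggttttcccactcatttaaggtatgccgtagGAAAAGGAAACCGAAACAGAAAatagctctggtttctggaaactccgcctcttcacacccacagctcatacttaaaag
Ifit1, chr19:34640639-34640888, plus strand: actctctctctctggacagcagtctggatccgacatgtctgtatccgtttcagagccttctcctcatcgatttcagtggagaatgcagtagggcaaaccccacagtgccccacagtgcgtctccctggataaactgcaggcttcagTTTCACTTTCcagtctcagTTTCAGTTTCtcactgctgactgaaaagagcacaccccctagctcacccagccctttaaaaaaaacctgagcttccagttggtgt
Ifit3, chr19:34583279-34583528, plus strand: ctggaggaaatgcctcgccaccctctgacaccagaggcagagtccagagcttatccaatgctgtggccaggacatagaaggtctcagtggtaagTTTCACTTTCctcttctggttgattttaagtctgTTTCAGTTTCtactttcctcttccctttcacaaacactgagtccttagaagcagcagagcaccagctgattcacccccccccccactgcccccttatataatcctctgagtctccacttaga
Rsad2, chr12:26456453-26456702, minus strand: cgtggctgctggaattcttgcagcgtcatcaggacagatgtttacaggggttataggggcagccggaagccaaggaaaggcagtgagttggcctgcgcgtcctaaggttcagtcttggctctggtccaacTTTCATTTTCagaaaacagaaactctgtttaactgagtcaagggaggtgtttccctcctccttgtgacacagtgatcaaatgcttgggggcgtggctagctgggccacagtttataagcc
Bst2, chr8:71537473-71537722, minus strand: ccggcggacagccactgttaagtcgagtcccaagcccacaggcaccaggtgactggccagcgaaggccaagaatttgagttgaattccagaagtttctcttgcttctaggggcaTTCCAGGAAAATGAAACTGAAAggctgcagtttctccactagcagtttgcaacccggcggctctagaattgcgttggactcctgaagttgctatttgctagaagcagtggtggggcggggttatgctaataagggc
Oasl1, chr5:114922990-114923239, plus strand: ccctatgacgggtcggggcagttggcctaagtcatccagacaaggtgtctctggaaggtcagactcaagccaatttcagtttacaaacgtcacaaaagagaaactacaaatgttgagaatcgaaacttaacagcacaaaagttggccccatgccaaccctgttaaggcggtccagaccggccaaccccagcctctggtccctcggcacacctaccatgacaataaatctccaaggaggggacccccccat

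The control library held 38328760 unique molecular identifiers (UMIs, each counting 1 captured RNA molecule) and the JPI-289 library 35548396, over all barcodes. After cells were called and those with over 50% mitochondrial UMIs were left out, 3743 control and 5025 JPI-289 cells remained, with medians of 2063 and 1872 UMIs per cell, and 23 barcodes occurred in both. Cells were grouped without the interferon genes and named from marker lists. The classes were proximal tubule (PT)-like cells (1793 control, 1652 JPI-289), endothelial (EC)-like cells (495 and 567), loop of Henle (LOH)/distal tubule-like cells (551 and 953), collecting duct-like cells (125 and 442), neutrophils (196 and 650) and macrophages (130 and 171). A further cluster of 70 and 130 cells, led by Chil3, Lyz2 and Ccl6 with the macrophage list in front, held a platelet gene among its leading genes and stayed unnamed. In the clustering used, clusters of PT-like cells came almost wholly from 1 library each, so that ratios in this class compare different clusters. Cluster and library cannot be told apart there. Clusters of JPI-289 cells were led by the list of injured PT markers, with Krt20, Fgb or Havcr1 among their leading genes. Those of control cells were led by the list of PT markers. Ratios in PT-like cells therefore set cells with different leading markers against each other. In EC-like cells 1 cluster of 182 cells held 181 control cells. Collecting duct-like cells had a median depth of 6619 UMIs in control and 1562 in JPI-289 cells.

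Values are UMIs of a gene summed over a class, and levels are given as CPM, the UMIs of the gene per 1000000 UMIs of the class in that library. The 5′ kit counts each molecule once, so these levels are not divided by gene length. A log2 ratio is the JPI-289 level over the control level with 0.5 UMIs added to each sum, and its range in square brackets is the exact 95% interval of the ratio of 2 counts. Intervals cover counting error only, and they are too narrow where many UMIs of a gene came from 1 cell, so the number of cells is given beside such values. A gene was called higher or lower where it had at least 20 UMIs over both libraries in the class and a ratio of at least 2-fold.

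Over all called cells together, all 37 members had at least 20 UMIs, from 36 (Oas2) to 13000 (Ifitm3), and their median log2 ratio was -0.73, against -0.22 over all genes. With all cells of a class, the median of the members lay below that of all genes in each of the 6 named classes. Fewer members could be measured there than over all called cells. Without the EC-like cluster of mostly control cells, the order reversed there, at -0.01 for members and -0.10 for all genes. That step removed cells almost only from the control library. Leaving out 1 cluster also reversed it in LOH/distal tubule-like cells (0.07 and -0.08), but not in PT-like cells (-0.59 and -0.04). In LOH/distal tubule-like cells several alternative settings turned the median positive. Neutrophils had the lowest median, -1.0 over 22 members. Under the alternative settings it ran from -1.11 to -0.04, the latter with at least 100 UMIs per gene. The summed level of the members was 4428 and 4437 CPM in neutrophils, carried mainly by Ifitm1, and 203 and 141 CPM in PT-like cells. The share of called members and of all called genes is shown by class.

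**Figure D1:**
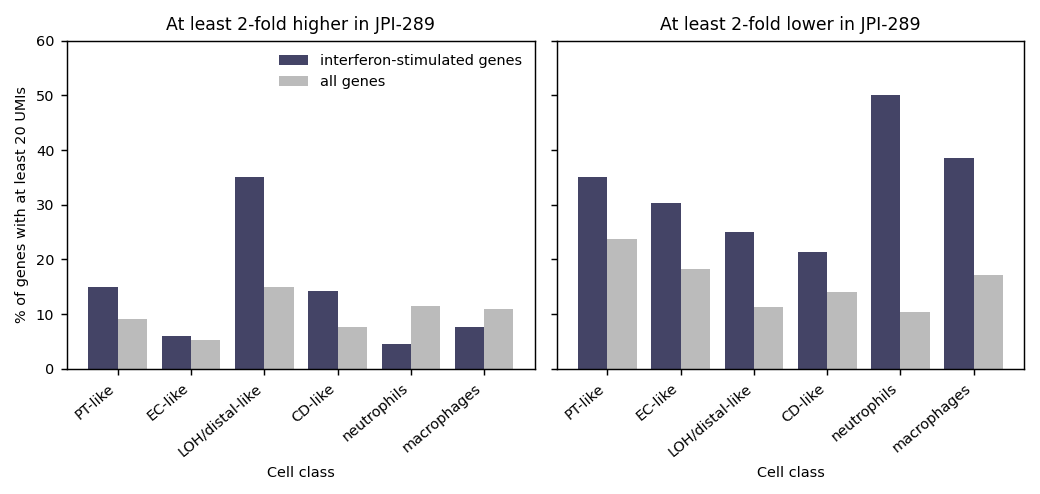
Percentage of genes with at least 20 UMIs that were at least 2-fold higher (left) or lower (right) in the JPI-289 than in the control library, for interferon-stimulated genes (dark bars) and all genes (light bars) in 6 cell classes. The share of lower members was largest in neutrophils, where 11 of 22 were lower, and the share of higher members in LOH/distal tubule-like cells, where 7 of 20 were higher.

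Ifitm3 and Ifitm1 differed widely in level between the classes. Ifitm3, which blocks virus entry at endosomal membranes, had a level of 1584 CPM in control and 2095 CPM in JPI-289 EC-like cells, and 612 and 505 in neutrophils. In macrophages the level of Ifitm3 was 464 and 212, in collecting duct-like cells 127 and 151, and in LOH/distal tubule-like cells 33.5 and 28.5. PT-like cells had 10.5 and 7.22 CPM, where the 85 and 53 UMIs were close to the 63.9 and 51.2 that RNA free in the suspension would give. Outside these classes, stroma had 1881 and 1746 CPM and the Chil3/Lyz2 cluster 1169 and 821. Its neighbour Ifitm1 was carried mainly by neutrophils, at 2414 and 3022 CPM.

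**Figure D2:**
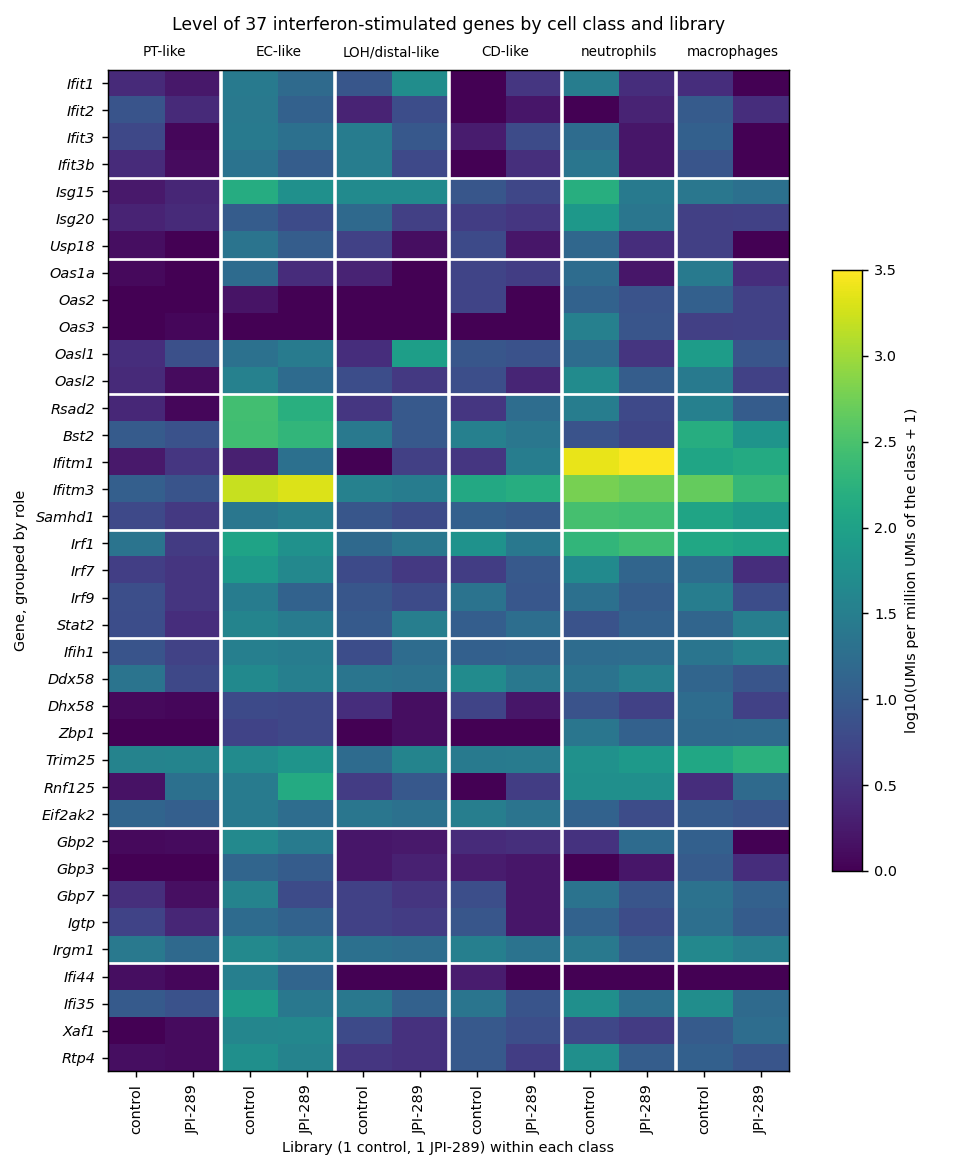
Level of the 37 matched members (rows, grouped by role) in 6 cell classes (column pairs, control on the left and JPI-289 on the right), coloured by log10 of CPM plus 1. Ifitm3 was highest in EC-like cells and Ifitm1 in neutrophils, while each IFIT and OAS gene stayed below 100 CPM in all 6 classes.

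Isg15, a ubiquitin-like protein that is coupled to other proteins, was, among the 6 classes, highest in neutrophils and EC-like cells of the control library. In neutrophils its level was 154 CPM in the control and 26.02 CPM in the JPI-289 library, and in EC-like cells 145 and 55.4. LOH/distal tubule-like cells had 46.8 and 46.0, macrophages 23.8 and 18.7, and collecting duct-like cells 7.59 and 4.56. In PT-like cells 6 and 10 UMIs were seen where free RNA would give 7.98 and 3.30, so the control count is under that level and the JPI-289 count above it, and both are too few to compare. The order of the 2 leading control classes is within counting error. Isg15 was therefore lower in the JPI-289 library in EC-like cells and neutrophils, while in LOH/distal tubule-like cells its ratio turned on 1 control cell.

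In EC-like cells 33 of 37 members had at least 20 UMIs. Of these, 10 were at least 2-fold lower in the JPI-289 library, where 18.3% of all genes were, and 2 were higher, where 5.27% of all genes were. The median log2 ratio of the members was -0.63, against -0.17 for all genes. The lower members were Ifit2, Ifit3b, Isg15, Usp18, Oas1a, Oasl2, Irf9, Ifi44, Ifi35 and Gbp7.

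Rsad2 encodes viperin, an enzyme that makes a chain-terminating nucleotide, and had the most UMIs after Ifitm3 in control EC-like cells. It gave 539 UMIs in 128 control cells and 278 UMIs in 49 JPI-289 cells, a log2 ratio of -0.78 [-0.99, -0.57], which is under 2-fold. Single cells held up to 64 and 57 of these UMIs. Bst2, also called tetherin, which holds budding virions at the cell surface, gave 516 and 348 UMIs (-0.39 [-0.59, -0.19]). Ifitm3 went the other way, with 3071 and 3594 UMIs (0.40 [0.33, 0.47]).

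Isg15 gave 282 UMIs in 92 control EC-like cells and 95 in 48 JPI-289 cells, a log2 ratio of -1.39 [-1.74, -1.05]. Ifi35, an interferon-induced leucine zipper protein, was lower with 161 and 41 UMIs (-1.78 [-2.33, -1.29]). Gbp7, a guanylate-binding GTPase, was lower with 70 and 9 UMIs (-2.72 [-3.97, -1.78]), and 10.5% of its 90-base windows also occur in another gene. Oas1a, which makes the activator of RNase L, had 30 and 3 UMIs (-2.95 [-5.50, -1.46]). It shares 43.4% of such windows with Oas1g, so its count is uncertain. Usp18, the protease that removes Isg15 and restrains the type I receptor, had 41 and 17 UMIs (-1.07 [-2.0, -0.25]).

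The members include 4 transcription factors of the pathway, Irf7, Irf1, Irf9 and Stat2. In EC-like cells Irf7, the amplifier of type I interferon genes, had 144 and 71 UMIs (-0.84 [-1.27, -0.42]), and Irf1 had 205 and 101 (-0.84 [-1.20, -0.49]). Irf9 had 56 and 20 UMIs (-1.29 [-2.12, -0.55]) and was the only one of the 4 past 2-fold. Stat2 had 72 and 48 UMIs (-0.40 [-0.97, 0.14]).

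Of the GTPases that act on intracellular vacuoles, Gbp3 had enough UMIs in this class alone of the 6. Gbp2 had 85 and 48 UMIs (-0.64 [-1.19, -0.12]), Gbp3 had 25 and 16 (-0.45 [-1.47, 0.49]), Igtp had 30 and 20 (-0.40 [-1.30, 0.46]) and Irgm1 had 83 and 53 (-0.47 [-1.0, 0.04]). Of these 4 none passed 2-fold. Ifi44 had nearly all of its UMIs in this class, 60 of 68 in the control and 22 of 23 in the JPI-289 library.

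Ifit1 had 50 and 26 UMIs (-0.75 [-1.51, -0.06]) and Ifit3 had 51 and 32 (-0.49 [-1.18, 0.17]), and Ifit2 was lower with 48 and 19 (-1.14 [-2.01, -0.37]). Oasl1 had 37 and 48 UMIs (0.55 [-0.10, 1.21]) and Samhd1, a nucleotide hydrolase, had 45 and 53 (0.41 [-0.19, 1.02]).

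Both higher members in EC-like cells need their cells beside them. Rnf125, a ubiquitin ligase that marks the RNA sensors for degradation, had 54 UMIs in 44 control cells and 235 in 107 JPI-289 cells (2.29 [1.87, 2.75]). Ifitm1 had 2 and 32 UMIs, but the 32 came from 5 cells and 18 of them from 1 cell. Free RNA would give about 26.2 UMIs of Ifitm1 in these JPI-289 cells, so this value does not clearly separate from background. That estimate is rough, since the share of free RNA ran from 3.86% to 40.2% between marker lists.

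The cluster of 181 control cells set much of the EC-like result. Its cells carried Isg15 at 182, Rsad2 at 327, Gbp2 at 74.9 and Stat2 at 57.5 CPM, and 34 of the 181 held at least 3 of 12 core members (the 4 Ifit genes, Isg15, Usp18 and the 5 Oas and Oasl genes, with Rsad2). Without it, 314 control and 566 JPI-289 cells remained, and the median log2 ratio of 31 members was -0.01, against -0.10 for all genes. Then 4 members were at least 2-fold lower (15.2% of all genes) and 3 higher (7.65%), the latter being Rnf125, Ifitm1 and Samhd1 (15 and 53 UMIs, 1.04). Gbp2 turned from 85 and 48 UMIs to 16 and 48 (0.80 [-0.01, 1.75]). Isg15 stayed lower, at -1.03 [-1.44, -0.62], as did Ifi35 (-1.41 [-2.02, -0.83]), Gbp7 (-2.12 [-3.46, -1.01]) and Irf9 (-1.07 [-2.0, -0.17]). Rnf125 was 2.29 [1.74, 2.93] without the cluster too. Whether the cluster is a kind of endothelial cell that the JPI-289 library lacks or an effect on the same kind of cell cannot be told apart.

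**Figure D3:**
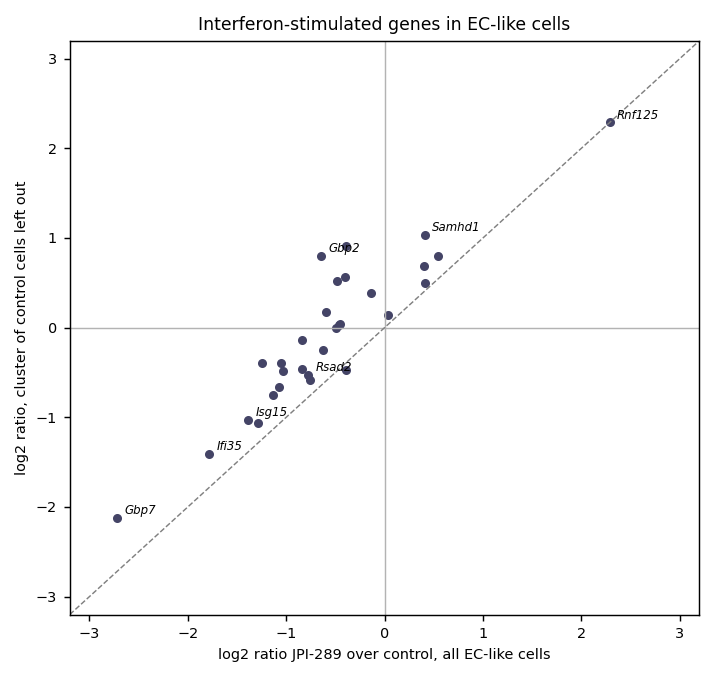
Log2 ratio of the members in all EC-like cells (x axis) and without the cluster of 181 control cells (y axis); each point is 1 gene with at least 20 UMIs in both cases, and the dashed line marks equal values. Most points lie above the line, Isg15, Irf9, Ifi35 and Gbp7 stay below -1, and Rnf125 keeps 2.29; Ifitm1, with no control UMI left, is not drawn.

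Both other EC-like clusters held cells of each library. In the deeper one shared by both libraries, of 92 control and 307 JPI-289 cells, Rsad2 had 192 and 255 UMIs, or 277 and 182 CPM (-0.61 [-0.88, -0.33]). Isg15 was 122 and 61.2 CPM (-1.0 [-1.45, -0.55]) and Ifitm3 was 1432 and 2258 CPM (0.66 [0.55, 0.76]). Samhd1 had 11 and 52 UMIs (1.17 [0.27, 2.31]). The cluster of 222 and 259 shallow cells had 29 and 8 UMIs of Isg15 (-1.73 [-3.13, -0.63]) and 4 and 28 of Rnf125 (2.73 [1.36, 4.85]). In each of these clusters Isg15 was lower and Rnf125 higher in the JPI-289 library.

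In LOH/distal tubule-like cells members were called in both directions. Of 20 members with at least 20 UMIs, 7 were at least 2-fold higher in the JPI-289 library (15.0% of all genes) and 5 lower (11.4%), and the median log2 ratio was -0.15, against 0.06 for all genes. The higher members were Oasl1, Ifit1, Stat2, Rsad2, Ifih1, Rnf125 and Trim25, and the lower ones Ifit3, Ifit3b, Isg20, Bst2 and Ifi35. For each of Ifit3, Ifit3b and Bst2, most control UMIs came from a single cell, as given below. A cluster of 53 and 300 cells led by Snhg11, Neat1 and Malat1, RNAs kept in the nucleus, was placed in this class. Its name was close, with a marker score of 1.61 for LOH/distal tubule and 1.49 for injured PT. With interferon genes kept in the clustering, a cluster of 48 and 302 cells led by the same RNAs stayed unnamed. Without the cluster of 53 and 300 cells, 7 members were higher (6.40% of all genes) and 4 lower (11.9%). The higher ones were not all the same, since Trim25 fell under 2-fold and Irf1 passed it.

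Oasl1 is a member of the OAS family without the enzyme activity, known in mice to restrain translation of Irf7. It had 3 UMIs in 3 control cells and 253 UMIs in 63 JPI-289 cells, or 1.90 and 90.2 CPM (5.35 [4.01, 7.86]). The top JPI-289 cell held 46 of them. In the cluster led by Umod and Slc12a1, genes of the thick ascending limb, Oasl1 had 0 control UMIs and 66 in 21 JPI-289 cells. In the cluster led by Slc12a3, a gene of the distal convoluted tubule, 3 and 167 UMIs were counted in 3 and 33 cells. Oasl1 was thus higher in both nephron segments, and free RNA would give 2.96 UMIs over the class in the JPI-289 library.

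Ifit1, which binds RNA that lacks the host cap, had 12 UMIs in the control, all in 1 cell, and 143 UMIs in 35 JPI-289 cells, with at most 25 in 1 cell (2.70 [1.90, 3.73]). Of the 35 cells with Ifit1, 15 also had Oasl1 and 20 had Isg15, and all 7 cells with Ifit3 had Ifit1. These genes were therefore found together in part of the cells, which is a description of counts that share a cell's depth.

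Ifit3 and Ifit3b appeared lower only through 1 control cell. Ifit3 had 45 control UMIs, of which 43 came from that cell, and 23 UMIs in 7 JPI-289 cells (-1.78 [-2.59, -1.04]). With the top cell of each library left out, the log2 ratio of Ifit3 was 1.58. Ifit3b had 47 control UMIs, 46 of them in 1 cell, and 14 UMIs in 9 JPI-289 cells (-2.54 [-3.55, -1.69]), and the pair shares 30.5% to 35.1% of their windows. The control cell with the most core UMIs had 25590 UMIs in all, with 167 UMIs of core members, among them 47 of Isg15. Isg15 itself had 74 and 129 UMIs (-0.03 [-0.45, 0.41]) in 15 and 51 cells, and the 47 came from that control cell. The log2 ratio of Isg15 was 1.05 with the top cell of each library left out and 1.24 with each cell given equal weight. Bst2 had 40 and 24 UMIs (-1.55 [-2.36, -0.80]), with 23 of the 40 in 1 cell. With the top cell of each gene left out, 1 member in place of 5 was at least 2-fold lower, and the share of all genes there is not given.

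**Figure D4:**
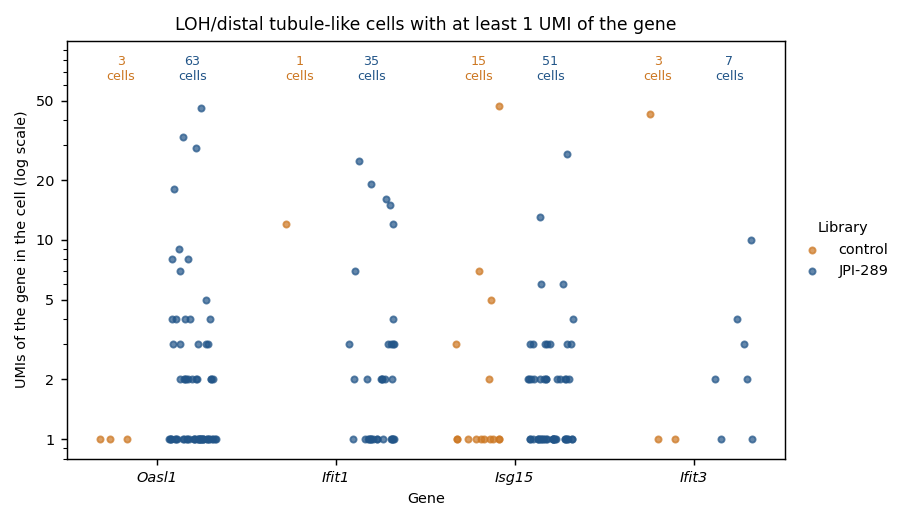
UMIs of Oasl1, Ifit1, Isg15 and Ifit3 (log scale) in each LOH/distal tubule-like cell with at least 1 UMI of the gene, for the control and the JPI-289 library, with the number of such cells above. Oasl1 was seen in 3 control and 63 JPI-289 cells and Ifit1 in 1 and 35, while 1 control cell held 43 of the 45 control UMIs of Ifit3.

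Stat2 had 14 and 86 UMIs in 12 and 52 LOH/distal tubule-like cells (1.75 [0.97, 2.72]). The RNA sensor Ifih1, also known as MDA5, had 9 and 46 UMIs (1.47 [0.48, 2.74]), and Trim25, a ubiquitin ligase that activates the sensor RIG-I, had 25 and 102 (1.18 [0.56, 1.90]). Of these Trim25 UMIs, 9 and 65 lay in the cluster led by Snhg11, Neat1 and Malat1, where its log2 ratio was -0.13. Without that cluster Trim25 was under 2-fold. Rsad2 had 4 and 24 UMIs (1.62 [0.22, 3.75]), the 4 in 1 cell, and Rnf125 had 5 and 23 (1.27 [-0.05, 3.13]). Ddx58, which encodes RIG-I, had 35 and 56 UMIs (-0.16 [-0.78, 0.50]). Irf1 had 23 and 66 (0.67 [-0.01, 1.45]), of which 11 and 27 lay in that same cluster (-1.66), and without the cluster Irf1 was past 2-fold. Irf7 was at 8 UMIs in each library, too few to compare. Isg20, an exonuclease, was lower with 23 and 10 UMIs (-1.99 [-3.26, -0.90]), as was Ifi35 with 38 and 31 (-1.12 [-1.85, -0.40]). Gbp2 gave 1 and 2 UMIs and Igtp 6 and 9 in this class.

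PT-like cells were the largest class. Of 20 measured members, 7 were at least 2-fold lower in the JPI-289 library (23.7% of all genes) and 3 higher (9.09%), with a median of -0.65 against -0.19 for all genes. The lower members were Ifit2, Ifit3, Irf1, Irf9, Stat2, Ddx58 and Igtp, and the higher ones Rnf125, Oasl1 and Ifitm1. Irf1 had 172 UMIs in 92 control cells and 22 in 21 JPI-289 cells (-2.79 [-3.53, -2.18]). Ddx58 had 171 and 35 UMIs (-2.13 [-2.71, -1.61]), Stat2 had 46 and 14 (-1.53 [-2.55, -0.68]) and Igtp had 33 and 10 (-1.53 [-2.76, -0.52]). Each of these had at most 10 UMIs in 1 cell.

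Many of these control UMIs came from 1 cluster of 230 control cells and 0 JPI-289 cells, led by Slc5a12, a transporter gene of the proximal tubule, and Snhg11. It held 121 of the 172 control UMIs of Irf1, 48 of the 171 of Ddx58, 25 of the 46 of Stat2, 13 of the 48 of Irf9 and 7 of the 33 of Igtp. Without this cluster 5 members were at least 2-fold lower (18.2% of all genes) and 3 higher (11.6%), with a median of -0.59 against -0.04 for all genes. Irf1 then had 51 and 22 UMIs (-1.19 [-2.0, -0.46]), Ddx58 123 and 35 (-1.80 [-2.40, -1.26]) and Igtp 26 and 10 (-1.33 [-2.59, -0.28]). Stat2, with 21 and 14 UMIs (-0.57 [-1.67, 0.46]), and Irf9, with 35 and 18 (-0.94 [-1.86, -0.10]), were no longer past 2-fold. In this clustering the remaining PT-like clusters also came almost wholly from 1 library each, and injured PT markers led only in those of JPI-289 cells. At Leiden resolution 0.5 a PT-like cluster led by Snhg11 and Slc5a12 held 248 control and 257 JPI-289 cells. Whether it joined this control cluster with cells of the LOH/distal tubule-like cluster led by Snhg11, Neat1 and Malat1 was not examined.

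The Ifit genes of PT-like cells rested on few cells. Ifit3 had 39 control UMIs in 13 cells, 27 of them in 1 cell, and 1 UMI in the JPI-289 library (-4.57 [-10.48, -2.58]). Ifit2, whose product promotes cell death, had 58 and 12 UMIs in 34 and 11 cells, with 23 in 1 control cell (-2.08 [-3.16, -1.21]). Ifit1 had 13 and 5 UMIs. Trim25 and Irgm1 had the most UMIs, 295 and 274 (0.04 [-0.20, 0.28]) and 206 and 109 (-0.77 [-1.12, -0.43]).

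Rnf125 showed the largest ratio of the members in PT-like cells, with 4 UMIs in 4 control cells and 136 in 101 JPI-289 cells (5.07 [3.84, 7.13]). Oasl1 had 15 and 45 UMIs in 9 and 28 cells (1.70 [0.86, 2.68]). Ifitm1 had 6 and 19 UMIs, under the 17.3 and 21.5 that free RNA would give, so that this call reads as background. Irf7 had 28 and 18 UMIs, Bst2 had 75 and 49 (-0.46 [-1.02, 0.07]), and Gbp2 had 2 in each library. Rnf125 and Oasl1 were thus higher in the JPI-289 library in PT-like as in LOH/distal tubule-like cells, though in the latter the interval of Rnf125 included 0.

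In neutrophils 11 of 22 measured members were at least 2-fold lower in the JPI-289 library (10.4% of all genes) and 1 was higher (11.6%), and the median was -1.0 against 0.10 for all genes. The lower members were Isg15, Isg20, Oas3, Oasl2, Rsad2, Irf7, Ifi35, Gbp7, Irgm1, Rtp4 and Zbp1. Isg15 had 67 UMIs in 17 control cells and 42 in 28 JPI-289 cells (-2.56 [-3.16, -1.99]). Rtp4, a chaperone of membrane receptors, had 24 and 16 UMIs (-2.46 [-3.49, -1.5]), Oasl2 had 21 and 16 (-2.27 [-3.32, -1.28]) and Irf7 had 20 and 21 (-1.82 [-2.78, -0.86]). Isg20 had 32 and 37 UMIs (-1.69 [-2.40, -0.95]) and Ifi35 had 24 and 28 (-1.67 [-2.51, -0.82]), over 434980 and 1614337 UMIs of the class. Zbp1, a sensor of left-handed nucleic acids, had 10 and 18 UMIs, and its interval included 0 (-1.07 [-2.24, 0.23]).

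The control UMIs of the core members, which include Isg15, Oas3, Oasl2 and Rsad2 of the lower ones, were concentrated in few neutrophils. Other lower members were more spread, with the 24 control UMIs of Ifi35 in 23 cells and the 32 of Isg20 in 20. Of 196 control neutrophils, 10 (5.10%, exact 95% interval 2.47% to 9.18%) held at least 3 of the 12 core members and 78.2% of the core UMIs, and of 650 JPI-289 neutrophils 6 (0.923%, 0.339% to 2.0%) held 29.8%. These intervals cover only the counting of cells within 1 library and do not compare the treatments. With each cell thinned to 1000 UMIs, the counts were 2 of 177 and 1 of 582. Of the 10 and 6 cells, 4 in each library sat at exactly 3 core members, and a further 2 and 4 cells at 2. The depth of neutrophils was alike, with medians of 1973 and 2041 UMIs. With the first step of cell calling alone, which keeps deeper cells, 2 members were at least 2-fold lower and 3 higher. The share of all genes under that setting is not given, so these counts have no background beside them.

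The members with the most UMIs in neutrophils were under 2-fold in either direction. Ifitm1 had 1050 and 4878 UMIs (0.32 [0.23, 0.42]), Ifitm3 had 266 and 816 (-0.28 [-0.48, -0.07]) and Samhd1 had 128 and 426 (-0.16 [-0.45, 0.14]). Irf1 had 87 and 411 UMIs (0.34 [0.01, 0.70]), Trim25 had 25 and 119 (0.34 [-0.27, 1.04]) and Ddx58 had 9 and 50 (0.52 [-0.46, 1.79]). Gbp2 was the only higher member, from 1 and 25 UMIs (2.20 [0.14, 8.11]). Stat2 had 3 and 19 UMIs, Ifit1 13 and 3, Ifit3 7 and 1, Bst2 3 and 7 and Igtp 5 and 9, and none of these was called. Over all called cells Ifitm1 had 1420 and 5353 UMIs and a log2 ratio of 1.82, while neutrophils made up 5.24% of control and 12.9% of JPI-289 cells.

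Macrophages had 13 measured members, of which 5 were at least 2-fold lower in the JPI-289 library (17.2% of all genes) and 1 was higher (11.0%). The median was -0.47, against -0.03 for all genes. Ifitm3 was lower, with 254 and 113 UMIs (-1.13 [-1.46, -0.81]), and so were Bst2, with 83 UMIs in 55 cells and 34 in 26 (-1.24 [-1.87, -0.66]), and Ifi35, with 28 and 8 (-1.71 [-3.12, -0.60]). Oasl1 had 46 control UMIs in only 4 cells and 4 in the JPI-289 library (-3.33 [-5.42, -2.03]), and 11 of the 18 control UMIs of Rsad2 were in 1 cell, against 5 JPI-289 UMIs (-1.71 [-3.60, -0.33]). That same cell held 22 of the Oasl1 UMIs, and another control cell held 22 of Oasl1 and 6 of Rsad2. The 1 higher member was Stat2, with 7 and 16 UMIs, and its interval included 0 (1.17 [-0.13, 2.75]). Trim25 had 65 and 91 UMIs (0.52 [0.05, 1.0]), Ifitm1 had 61 and 73 (0.29 [-0.21, 0.81]) and Irf1 had 67 and 55 (-0.25 [-0.79, 0.29]). Isg15 had 13 and 10 UMIs and Ifit1 1 and 0. Ifit3 and Gbp2 had 6 control UMIs each and none in the JPI-289 library, Irf7 had 9 and 1 and Igtp 10 and 5, all below the minimum.

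The cluster led by Chil3 and Lyz2 had 10 measured members, of which 3 were at least 2-fold lower (13.1% of all genes) and 0 higher (10.1%). Irf7 was lower with 28 UMIs in 17 control cells and 5 in 4 JPI-289 cells (-2.70 [-4.54, -1.42]), as was Bst2 with 34 and 19 (-1.15 [-2.05, -0.31]). The third, Rsad2, had 19 control UMIs that all came from 1 cell. Samhd1 had 247 and 184 UMIs (-0.75 [-1.03, -0.47]). No test was run, and each of these counts compares 1 library with 1 library.

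Collecting duct-like cells had 14 measured members, with 3 at least 2-fold lower (14.1% of all genes) and 2 higher (7.70%), and a median of -0.38 against -0.08. The part of the difference in depth, 6619 and 1562 UMIs per cell, in these values was not tested. Irf1 was lower with 71 and 37 UMIs (-1.30 [-1.93, -0.72]), Irf9 with 24 and 12 (-1.34 [-2.51, -0.32]) and Ifi35 with 26 and 11 (-1.58 [-2.78, -0.55]). Ddx58 had 57 and 37 (-0.99 [-1.63, -0.37]), Ifitm3 had 151 and 232 (0.25 [-0.05, 0.55]), Irgm1 had 37 and 32 (-0.58 [-1.31, 0.14]), Bst2 had 39 and 36 (-0.49 [-1.18, 0.20]) and Trim25 had 31 and 43 (0.09 [-0.60, 0.82]). Rsad2 was higher with 3 UMIs in 3 cells and 26 in 14 (2.55 [1.04, 5.11]). Ifitm1 was called higher with 3 UMIs in 1 cell and 45 UMIs in 41 cells, at most 2 in each (3.33 [1.90, 5.87]). Free RNA was estimated at 1.63% of the UMIs of this class for the control and 15% for the JPI-289 library, which would give 0.568 and 17.4 UMIs of Ifitm1. Stat2 had 12 and 27 UMIs (0.77 [-0.23, 1.91]). Ifit1 had 0 and 4 UMIs, Ifit3 had 1 and 8 with all 8 in 1 cell, Isg15 had 9 and 7, Irf7 had 4 and 13, Gbp2 had 2 and 3 and Igtp had 9 and 1.

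**Figure D5:**
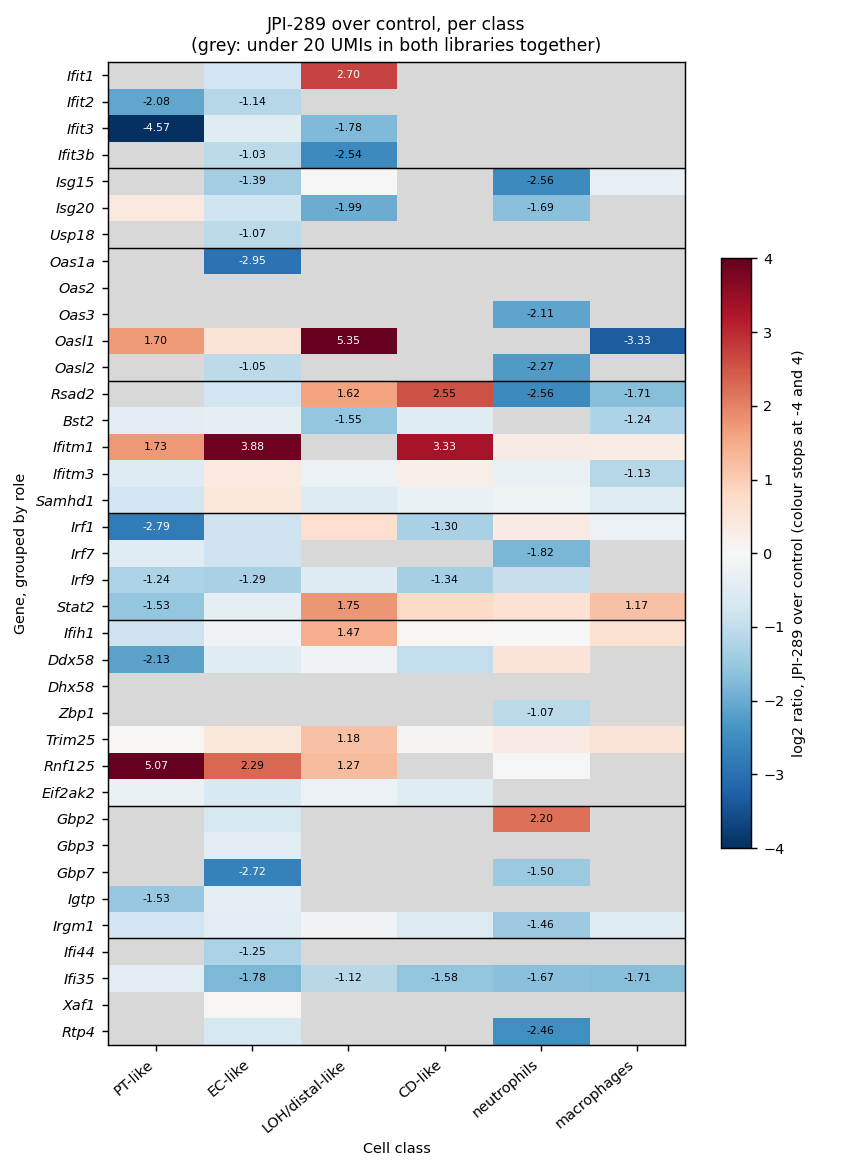
Log2 ratio of JPI-289 over control for the 37 members (rows, grouped by role) in 6 cell classes (columns), with the value printed where it was at least 1 or at most -1 and grey where the gene had under 20 UMIs. Oasl1 was 5.35 in LOH/distal tubule-like cells and -3.33 in macrophages, and Ifi35 was at or below -1 in 5 of the 6 classes. In LOH/distal tubule-like cells Ifi35 was -0.97 with the top cell of each library left out.

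Across classes, 3 members were at least 2-fold higher in one class and at least 2-fold lower in another, with counting intervals that excluded 0. Oasl1 was higher in LOH/distal tubule-like and PT-like cells and lower in macrophages, Rsad2 was higher in LOH/distal tubule-like and collecting duct-like cells and lower in neutrophils and macrophages, and Stat2 was higher in LOH/distal tubule-like and lower in PT-like cells. For Stat2 this rests on the control cluster led by Slc5a12 and Snhg11, without which its ratio in PT-like cells was under 2-fold (-0.57). In macrophages 1 control cell held 22 of the 46 Oasl1 and 11 of the 18 Rsad2 UMIs, and another held 22 and 6. The counting intervals do not cover such clumping. Ifi35 was at least 2-fold lower in 5 of the 6 classes, and in PT-like cells it had 71 and 48 UMIs (-0.41 [-0.98, 0.13]). In LOH/distal tubule-like cells its ratio was -0.97 with the top cell of each library left out. It was -1.28 [-2.36, -0.32] in the cluster led by Umod and -0.22 [-1.59, 1.18] in that led by Slc12a3. In collecting duct-like cells free RNA would give about 5.37 of the 11 JPI-289 UMIs of Ifi35. Rnf125 was at least 2-fold higher in the PT-like, EC-like and LOH/distal tubule-like cells, and in neutrophils it had 24 and 88 UMIs (-0.04 [-0.68, 0.70]). In LOH/distal tubule-like cells it had 5 and 23 UMIs and its interval included 0, and the PT-like ratio compares different clusters. In lymphocytes, of which the control library held 6 cells, Rnf125 had 1 and 81 UMIs.

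Cells that held at least 3 of the 12 core members were chosen for a count after values had been seen, so the shares are a description. They were 48 of 495 control EC-like cells (9.70%, exact 95% interval 7.24% to 12.7%) and 18 of 567 JPI-289 cells (3.17%, 1.89% to 4.97%). Of the 48 control cells, 34 lay in the cluster of 181 control cells, and the intervals cover only the counting of cells within 1 library. A further 49 and 26 cells lay just under the limit, with 2 core members. Thinned to 1000 UMIs per cell, with 137 and 194 shallower cells left out, the counts became 9 of 358 (2.51%) and 5 of 373 (1.34%). In the deeper EC-like cluster of both libraries they were 10 of 92 and 17 of 307. In LOH/distal tubule-like cells there were 2 of 551 (0.363%) and 17 of 953 (1.78%), or 1 of 344 and 8 of 705 after thinning. PT-like cells, where most core members had few UMIs, had 3 of 1793 (0.167%) and 1 of 1652 (0.0605%), at median depths of 2260 and 1841 UMIs. The control share was the larger in EC-like cells and the smaller in LOH/distal tubule-like cells, before thinning and after it. After thinning, the exact 95% intervals of control and JPI-289 overlapped, but they cover only the counting of cells within 1 library. They were 1.16% to 4.72% and 0.437% to 3.10% in EC-like cells, and 0.00736% to 1.61% and 0.491% to 2.22% in LOH/distal tubule-like cells. With 1 library per treatment the order of the treatments is not settled, whether or not such intervals overlap.

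Members with few UMIs, and Eif2ak2, are given over all cells, whose mix of classes differed between the libraries. Oas2 had 22 and 14 UMIs and Oas3 had 22 and 17. Dhx58, a regulator of the RNA sensors also called LGP2, had 44 and 24. Xaf1, a partner of the apoptosis inhibitor XIAP, had 122 and 120 UMIs, of which 76 and 69 were in EC-like cells (0.04 [-0.45, 0.53]). Eif2ak2, which encodes the kinase PKR that halts translation on double-stranded RNA, had 281 and 235 UMIs (-0.35 [-0.61, -0.10]). By class it had 102 and 77 UMIs in PT-like, 50 and 29 in EC-like, 36 and 54 in LOH/distal tubule-like and 36 and 33 in collecting duct-like cells. Podocytes had no member with 20 UMIs. In stroma Ifi35 had 27 and 2 UMIs (-2.30 [-5.72, -0.61]). In red blood cells Isg20 had 73 and 44 UMIs.

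Of the other genes of the pathway, 88 of 93 listed symbols matched. The 10 listed interferon ligands gave almost no UMIs. Ifnb1, Ifna1, Ifna2, Ifna4, Ifna5, Ifne, Ifnl2 and Ifnl3 had none in any called cell, Ifnk had 1 and Ifng had 19, all in lymphocytes of the JPI-289 library. A count of 0 allows up to 3 UMIs in each library, or 0.180 CPM for the control and 0.168 CPM for the JPI-289 library over all called cells. Beyond the 1 UMI of Ifnk, no ligand RNA was therefore counted outside lymphocytes at this depth. Within single classes the limit is much higher. It was 218 CPM in control and 13.1 CPM in JPI-289 lymphocytes, and 5.48 and 5.62 CPM in macrophages. The control library held only 6 lymphocytes, against 98 in the JPI-289 library, so Ifng cannot be compared between the libraries.

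Receptor genes were found in all 6 classes. Ifnar1 was, among the 6 classes, highest in macrophages, at 95.1 and 93.7 CPM, and had no ratio past 2-fold, with 114 and 122 UMIs in PT-like cells and 117 and 84 in EC-like cells. Ifnar2 was higher in JPI-289 neutrophils, with 59 and 505 UMIs (1.19 [0.81, 1.62]), and had 142 and 239 in macrophages (0.79 [0.48, 1.10]) and 350 and 407 in EC-like cells. The subunits of the interferon gamma receptor diverged in PT-like cells, where Ifngr1 had 390 and 162 UMIs (-1.12) and Ifngr2 had 190 and 485 (1.5 [1.25, 1.75]). Il10rb, shared by the lambda interferon and interleukin-10 receptors, was lower in EC-like cells, with 308 and 81 UMIs (-1.74 [-2.12, -1.39]), and in macrophages, with 117 and 33 (-1.77 [-2.39, -1.22]). Ifnlr1, the specific subunit for lambda interferons, had 2 and 20 UMIs in LOH/distal tubule-like cells.

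Among the 88 pathway genes, 42 were measured in PT-like cells, with 3 at least 2-fold higher (9.09% of all genes) and 13 lower (23.7%). Without the control cluster led by Slc5a12 and Snhg11, 41 were measured, with 5 higher (11.6% of all genes) and 11 lower (18.2%). Mavs, the mitochondrial adaptor of the RNA sensors, had 528 and 66 UMIs (-2.84 [-3.25, -2.48]). Parp10, an interferon-induced mono-ADP-ribosyltransferase, had 176 and 33 (-2.25 [-2.85, -1.73]), while Daxx had 82 and 154 (1.05 [0.66, 1.46]) and Stat3 had 651 and 1138 (0.95 [0.81, 1.09]).

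In EC-like cells 56 pathway genes were measured, with 0 higher (5.27% of all genes) and 19 lower (18.3%). Without the cluster of 181 control cells 52 were measured, with 1 higher (7.65%) and 13 lower (15.2%). The lowest were Irf2, an antagonist of Irf1, with 135 and 10 UMIs (-3.51 [-4.67, -2.66]), Iigp1 with 88 and 15 (-2.34 [-3.27, -1.58]) and Slfn2 with 124 and 24 (-2.17 [-2.89, -1.55]). The highest ratios were under 2-fold, with Jak2 at 0.71 [0.20, 1.24], Tbk1 at 0.67 [0.29, 1.07] and Stat3 at 0.66 [0.43, 0.89].

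In LOH/distal tubule-like cells 36 were measured, with 4 higher (15.0% of all genes) and 5 lower (11.4%). Without the cluster led by Snhg11, Neat1 and Malat1, 32 were measured, with 1 higher (6.40% of all genes) and 10 lower (11.9%). Mavs was lower with 96 and 27 UMIs (-2.64 [-3.33, -2.03]) and so was Ly6e with 914 and 577 (-1.49 [-1.64, -1.34]), while Ifi27 had 92 and 95 (-0.78 [-1.21, -0.35]). The kinase gene Tbk1, which acts below the sensors, was higher with 23 and 122 UMIs (1.56 [0.93, 2.29]), as were Pias1 with 28 and 117 (1.22 [0.63, 1.89]) and the chemokine Cxcl10 with 73 and 285 (1.13 [0.76, 1.53]).

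Neutrophils had 36 measured pathway genes, of which 2 were higher (11.6% of all genes) and 5 lower (10.4%), with a median of 0.08, next to the -1.0 of the members. Irf2 was lower with 76 and 75 UMIs (-1.91 [-2.39, -1.43]) and Ly6e with 261 and 348 (-1.48 [-1.71, -1.24]), and Ptpn6, a phosphatase that damps cytokine signals, had 178 and 578 (-0.20 [-0.44, 0.06]). Ifitm2 had 1030 and 7371 UMIs (0.95 [0.85, 1.04]) and Ifngr2 had 32 and 215 (0.84 [0.32, 1.44]).

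Macrophages had 40, of which 2 were higher (11.0% of all genes) and 9 lower (17.2%). Ptpn6 was lower with 139 and 28 UMIs (-2.25 [-2.92, -1.68]) and Ly6e with 494 and 142 (-1.76 [-2.04, -1.49]), and Stat3 was higher with 110 and 271 (1.33 [1.01, 1.67]), whereas Ifitm2 had 530 and 851 (0.72 [0.56, 0.88]). Collecting duct-like cells had 34, of which 0 were higher (7.70% of all genes) and 8 lower (14.1%). Their named genes were all under 2-fold, with Ly6e at 4476 and 4528 UMIs (-0.36 [-0.41, -0.30]), Lgals3bp at -0.85 [-1.42, -0.30], Socs3 at -0.51 [-0.78, -0.23], Ptpn11 at 0.63 [0.24, 1.05], Stat3 at 0.54 [0.27, 0.81] and Jak1 at 0.34 [-0.02, 0.72].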

How the data were processed

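Single-cell RNA libraries of 1 control and 1 JPI-289 kidney were analysed. The authors aligned the reads to mm10, counted UMIs with Cell Ranger 5.0.1 and deposited raw counts of all barcodes, with no normalization and no cell filter. Here cells were called by total UMIs (over 3338 for the control and over 2618 for JPI-289) and, from 500 UMIs, by their difference from empty droplets in 10000 simulations at a false discovery rate of 0.01. Cells with over 50% mitochondrial UMIs were left out. The remaining cells were scaled to 10000 UMIs and clustered with 2000 variable genes, 30 principal components, 20 neighbours and Leiden resolution 1.0, without the members and pathway genes and without correction between libraries, and clusters were named from marker lists. The doublet caller marked 1 of 8768 cells and so did not work, and no doublets were removed. Free RNA was taken from barcodes under 100 UMIs and scaled by the median over marker lists of other classes. These lists could differ widely, so counts said to come from free RNA are rough.

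UMIs were summed per class. No test was made, since each group was 1 library. Genes were named by rule, as all members, and per class the 3 highest, the 3 lowest and the 3 most abundant members, taken among members with at least 50 UMIs, with the 3 pathway genes of at least 100 UMIs at either end of the ratios, and ligands and receptors. Other names were chosen after their values were seen, among them the list of 12 core members. The result of 1 pathway gene is not reported here. Members and lists were chosen with earlier results of these data known. Ratios and intervals were computed on simulated counts, where 95.6% of intervals held the true ratio of 160 changed genes among 13167. These counts were drawn independently at equal depth for both libraries, without single cells that hold many UMIs of a gene. Such coverage was therefore built in, and the run checks the calculation, not the intervals of these data. Promoter sequences came from RefSeq (GRCm38.p6) and gene positions from GENCODE. Software was scanpy 1.11.5 with leidenalg 0.10.2 in Python 3.11.15, beside scipy 1.17.1 and numpy 2.4.6. Alternatives for calling, mitochondrial limit, clustering, doublets, weights, scaling, free RNA and the UMI minimum were tried.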

Additional observations from a re-analysis of the deposited data

Results flagged for a closer look

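Ratios of 3 members went past 2-fold in opposite directions in 2 cell classes, each with a counting interval that excluded 0. For Oasl1 the log2 ratio in LOH/distal tubule-like cells exceeded that in macrophages by 8.69 (5.35 and -3.33). For Rsad2 the ratio in collecting duct-like cells exceeded that in neutrophils by 5.11 (2.55 and -2.56), and for Stat2 the ratio in LOH/distal tubule-like cells exceeded that in PT-like cells by 3.29 (1.75 and -1.53). With 1 library per treatment these differences between classes were not tested. The control UMIs of Oasl1 in macrophages came from 4 cells, with 22 of the 46 in 1 cell and 22 in another. Rsad2 had 13 and 8 UMIs in neutrophils, in 6 cells of each library, where free RNA would give 3.85 UMIs in the JPI-289 library. In collecting duct-like cells Rsad2 had only 3 control UMIs. Of the 46 control UMIs of Stat2 in PT-like cells, 25 came from 1 cluster of control cells, and without it the log2 ratio there was -0.57.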

How the results depend on the processing

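Values rest on 1 library per treatment, and most members had few UMIs in a class, so a few cells decide many of them. Of the alternatives, 169 medians and counts of called members stayed within the limits set, 36 moved and 5 reversed. No cause was tested unless the setting itself shows it.

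In LOH/distal tubule-like cells the median of the members turned positive with Leiden resolution 0.5 (0.076), interferon genes kept in the clustering (0.10), equal weight of each cell (0.58), at least 100 UMIs per gene (1.47) and the cluster of nuclear RNA left out (0.069). In EC-like cells it moved to -0.36 with equal weight and to -0.0061 without the cluster of control cells. In neutrophils it moved to -0.039 with at least 100 UMIs per gene. Counts followed the minimum of UMIs, since it sets which genes are measured. The share of all genes past 2-fold can change with the setting too and is not given in this section. The counts of called members below therefore describe the processing and are not a result about the members. With at least 100 UMIs per gene the members higher and lower were 1 and 2 in PT-like cells, 1 and 2 in EC-like cells, 4 and 0 in LOH/distal tubule-like cells, 0 and 1 in collecting duct-like cells, 0 and 1 in neutrophils and 0 and 2 in macrophages. With no minimum they were 5 and 15 in PT-like cells, 8 and 11 in collecting duct-like cells and 2 and 18 in macrophages, and the lower ones 9 in LOH/distal tubule-like cells and 19 in neutrophils.

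With equal weight of each cell, 2 members were lower in LOH/distal tubule-like cells, 2 higher in neutrophils and 0 higher in macrophages. With the first step of calling alone, 3 were higher and 2 lower in neutrophils, 1 higher in collecting duct-like cells and 0 higher in macrophages. Centred on the median of all genes, 6 were lower in EC-like cells. With the highest doublet scores left out, 3 were lower in macrophages.

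Settings chosen after seeing the data were the top cell left out, which gave 1 higher member in EC-like and 1 lower in LOH/distal tubule-like cells, the EC-like cluster left out, which gave 4 lower members, the PT-like control cluster left out, which moved Irf1 (-1.19) and Stat2 (-0.57), and the Chil3/Lyz2 cluster added to macrophages, which gave 0 higher and 10 lower. Single members that reversed were Ifitm3 in PT-like cells (0.0020), Ifit1 in EC-like cells (0.042) and Bst2 in LOH/distal tubule-like cells (0.72) with equal weight, Gbp2 in EC-like cells without the cluster (0.80) and Ifit3 in LOH/distal tubule-like cells without the top cell (1.58). No paired analysis was possible because each group was 1 sample, and for the same reason no library could be left out.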

Other observations

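Stroma and red blood cells also held members. Bst2 in stroma had 94 and 43 UMIs, or 108 and 110 CPM. Isg20 in red blood cells stood at 515 and 194 CPM, and Rsad2 there had 18 and 26 UMIs. Over all called cells Rnf125 had 102 and 604 UMIs, and the members together had 1006 and 1091 CPM.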
